A study of Mus musculus with 6 samples.

Results

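The 85 genes described here were those whose RNA was at least 2 times lower in each of 3 B16F10 melanoma tumors grown in the mouse footpad than in each of 3 grown in the flank skin. They were chosen from the deposited read counts of the same 6 tumors. Each count was divided by the total of its tumor and multiplied by 1000000 to give CPM, the reads of a gene per 1000000 counted reads. A gene was a member when its lowest CPM among the flank tumors was at least 2 times its highest CPM among the footpad tumors and its mean flank CPM was 1 or more. Of 45777 genes listed, 13133 had a mean flank CPM of 1 or more, and 85 of these met the rule (0.647%). Because the site difference itself selected the genes, it is given for them as a description without a test.

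B16F10 is a mouse melanoma cell line that makes pigment and forms tumors when it is injected into mice. The study implanted it in the hind footpad, which bears weight, and in the flank skin, which does not, and sequenced total RNA of 1 library per tumor, with 3 tumors per site. The sample labels gave all 6 hosts as Foxn1-/- mice of 8 weeks, a strain without a working thymus, whereas the study's methods also describe grafts of this line into C57BL/6J mice and do not name the host of the sequenced tumors. The methods describe injecting this line into the flank and the hind footpad of a mouse at the same time. A figure legend for these data gives 3 mice. Each mouse may therefore have given a flank and a footpad tumor, but the labels did not say which tumors shared a mouse. The tests treated the tumors as unpaired, except where a replicate block is named. The methods also state that tumor cells were isolated, without naming how host cells were removed. Any comparison over these tumors measured only the spread between them.

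RNA of a grafted tumor comes both from the tumor cells and from host fibroblasts, vessels, blood and immune cells. A gene of the tumor cells can therefore be lower because the tumor cells make less of its RNA or because they are a smaller part of the sample. In these bulk samples fewer cells of a type and less RNA per cell could not be told apart. Pigment cells come from the neural crest, as do Schwann cells and part of the facial cartilage, and melanoma cells are known for carrying transcripts that are otherwise typical of nerve, glia or germ cells.

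The tumors were sequenced to between 46529649 and 66364366 counted reads, so that 3 reads, taken as the limit of detection, equalled 0.0452 to 0.0645 CPM. The summed CPM of 10 melanoma cell markers lay between 13256 and 24695 in footpad tumors and between 19230 and 27417 in flank tumors, so that the sites overlapped (two-sided exact permutation test, p = 0.4). The summed CPM of 10 fibroblast markers was 2984 to 4359 in footpad and 97.1 to 512 in flank tumors, and 10 of the 10 were among the 426 genes that were, in mirror image, at least 2 times higher in every footpad tumor. Summed endothelial markers (130 to 202 against 65.4 to 95.7 CPM) and summed macrophage markers (269 to 299 against 32.0 to 193 CPM) were also higher in every footpad tumor. Each sum gave p = 0.1 in the two-sided exact permutation test, the lowest value possible with 3 per group. Single markers differed: Cldn5 and Kdr of the endothelial list overlapped between the sites and the others did not. Of the macrophage list only Cd68, Csf1r and Lyz2 did not overlap, and Lyz2 alone was at 133, 136 and 155 CPM in footpad tumors. The 10 T and NK cell markers summed to no more than 0.603 CPM in any tumor, and Cd3d, Cd3e, Cd3g and Klrb1c had 3 counts or fewer in all 6. Of the markers of 12 cell types, 0 were members, against 0.647% of all genes with a mean flank CPM of 1 or more. The part of these differences in cell makeup in the members' lower levels was not tested.

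As a group the members were minor transcripts. Their summed level was 388, 446 and 393 CPM in footpad replicates 1, 2 and 3, and 2041, 1478 and 1373 CPM in flank replicates 1, 2 and 3. Mean flank levels ran from 1.05 to 133 CPM with a median of 5.77, and mean footpad levels ran from 0 to 37.8 CPM with a median of 1.00. The mean flank level was 2.44 to 46.6 times the mean footpad level, with a median of 4.90, and was 4 times or more in 54 genes, 8 times or more in 23 and 16 times or more in 12. In 11 members at least 1 footpad tumor had 0 counts, and in 35 the mean flank level was under 5 CPM. Per length, the median flank level of the 73 protein-coding members was 2.68 FPKM, against 8.87 FPKM for the 11783 protein-coding genes with a mean flank CPM of 1 or more.

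**Figure D1:**
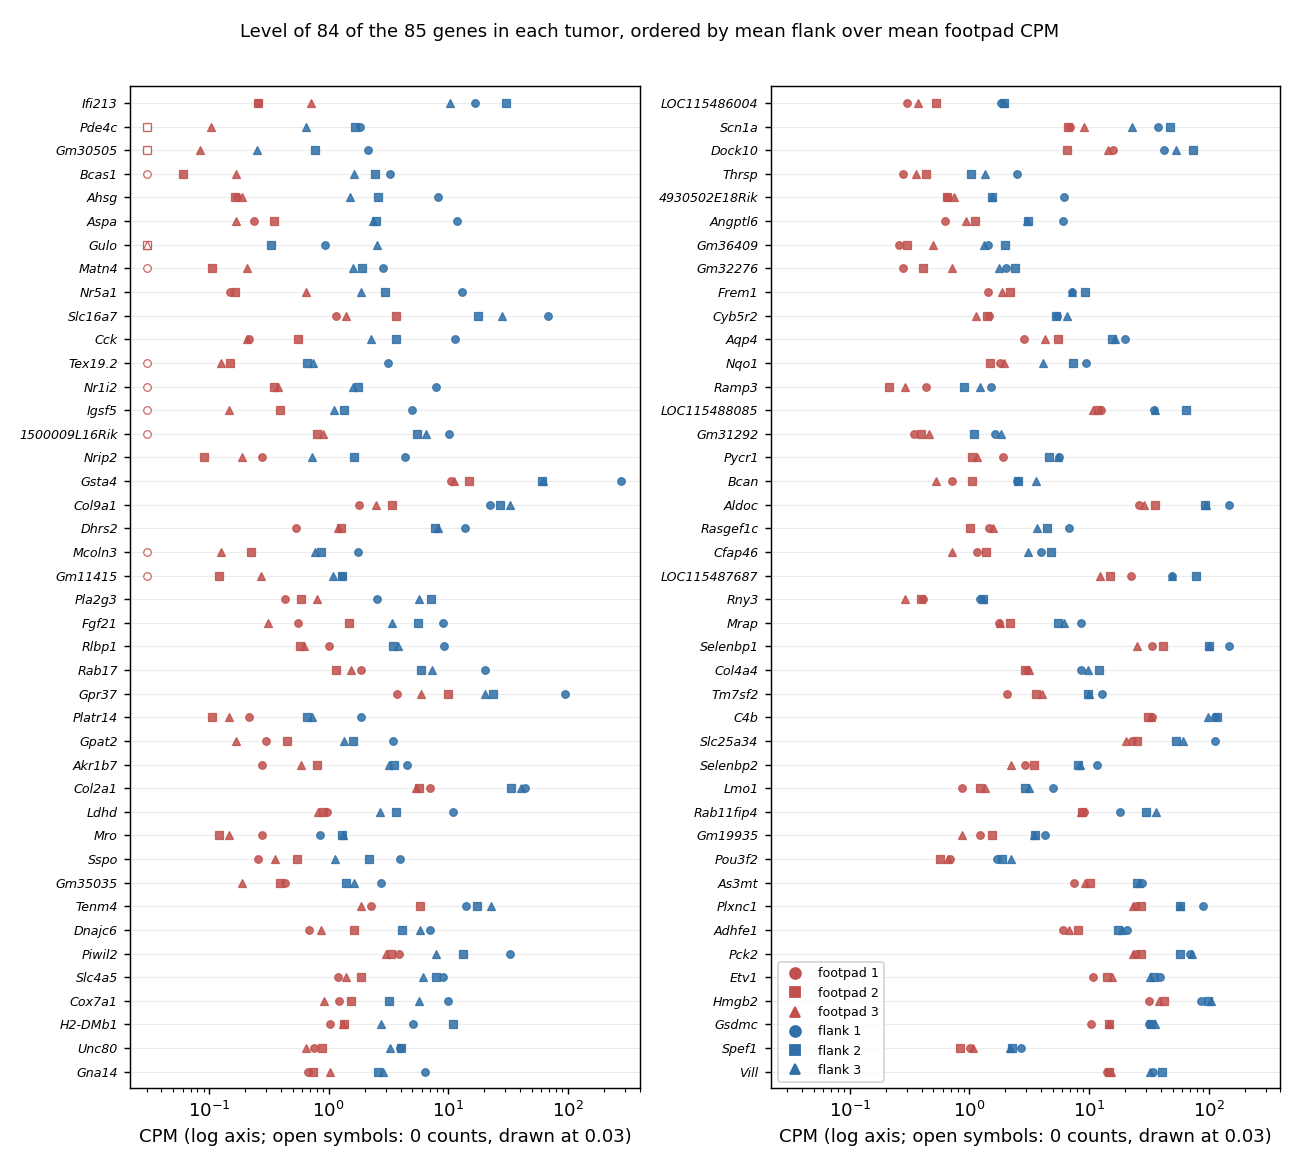
CPM of 84 of the 85 members (rows, ordered by mean flank over mean footpad CPM) in the 3 footpad tumors (red) and 3 flank tumors (blue), on a log axis with the replicate given by the symbol and 0 counts drawn as open symbols at 0.03. Blue symbols lie to the right of red ones in every row because the rule required it, and the distance between means runs from 46.6 times in Ifi213 to 2.44 times in Vill.

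The rule was a strict one for these tumors. Among the genes with a mean flank CPM of 1 or more, 1998 (15.2%) had all 3 flank tumors above all 3 footpad tumors by any margin. The mirror set, genes at least 2 times higher in every footpad tumor with a mean footpad CPM of 1 or more, held 426 genes (3.09%). By edgeR's quasi-likelihood test, which called 150 of 17210 genes lower in footpad tumors (0.872%), 72 of the 85 members were called, and nothing is read from that number because the rule used the same contrast.

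The ratio of the lowest flank to the highest footpad level had a median of 2.67 among the members. It was 2.5 or more in 52, 3 or more in 33, 5 or more in 10 and 10 or more in 1 of them. Just inside the threshold of 2 were H2-DMb1 (2.01), Rab11fip4 (2.02), Hmgb2 (2.03), Piwil2 (2.03) and 4930502E18Rik (2.05). Just outside it were Gdf15 (1.96), Dhdh (1.94), Ccdc38 (1.93), Map7d2 (1.91) and Fitm1 (1.88). Between ratios of 1.5 and 2 there were 122 genes, so that the edge of the set cut through a continuous range rather than a gap, as the plot of lowest flank against highest footpad level shows.

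**Figure D2:**
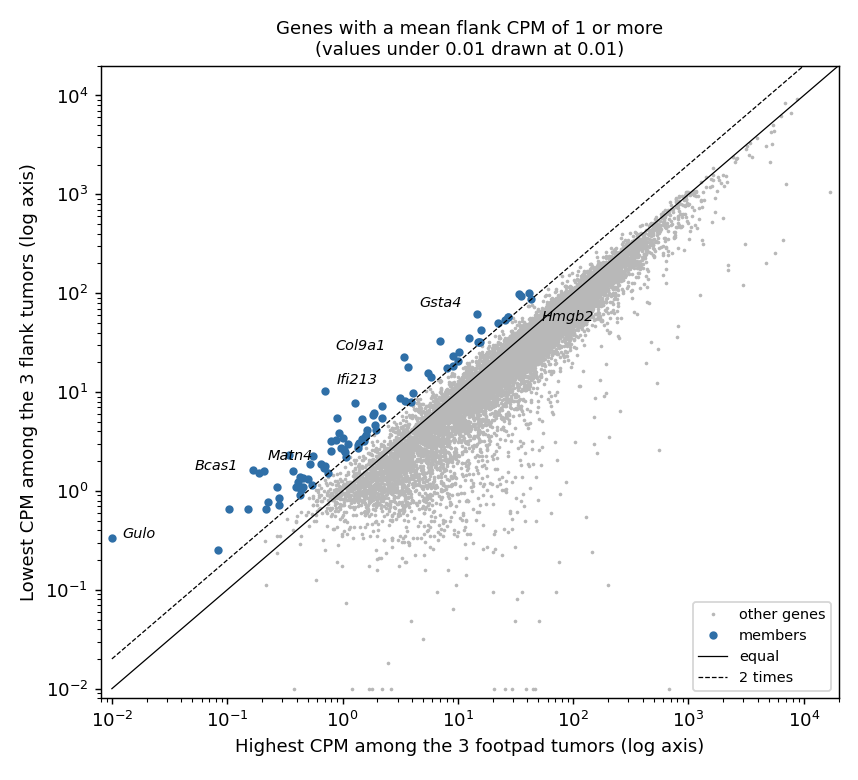
Lowest CPM among the 3 flank tumors against the highest CPM among the 3 footpad tumors for genes with a mean flank CPM of 1 or more, both on log axes. Members are in blue, equality is a solid line and the 2-fold limit of the rule a dashed line. Genes at least 2 times higher in every footpad tumor are not drawn. The members lie along the upper edge of the cloud, with Ifi213 farthest from the limit at a ratio of 14.5 and Gulo drawn at the left because its footpad tumors had 0 counts.

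Ifi213 had the widest gap between the sites. It belongs to the HIN-200 genes of mouse chromosome 1, an interferon-inducible family that includes sensors of DNA. It lies on the minus strand of chromosome 1 from 173566280 to 173599348 (GRCm38). Its promoter, 250 bases before to 50 after the start in RefSeq, is shown because it is the member with the widest gap and because it holds, in capitals, its 1 match to a pair of GAAA separated by 2 letters, the core of the element through which interferon-activated factors bind.

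Ifi213 promoter, chr1:173599223-173599522, minus strand: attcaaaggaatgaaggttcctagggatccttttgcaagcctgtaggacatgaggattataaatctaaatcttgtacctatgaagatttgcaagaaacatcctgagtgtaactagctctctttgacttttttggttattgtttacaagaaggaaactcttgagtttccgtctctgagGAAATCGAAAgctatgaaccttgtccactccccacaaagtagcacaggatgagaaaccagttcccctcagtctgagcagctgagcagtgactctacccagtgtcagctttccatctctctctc

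Its level was 0.258, 0.256 and 0.709 CPM in footpad replicates 1, 2 and 3 and 16.6, 30.1 and 10.3 CPM in flank replicates 1, 2 and 3, and levels are listed in that order of replicates from here on. Every footpad tumor was under 1 CPM and every flank tumor was above 10 CPM. The means were 0.408 ± 0.261 CPM in footpad and 19.01 ± 10.1 CPM in flank tumors (SD, n = 3), a ratio of 46.6, which was 73.96 without footpad replicate 3, the highest footpad tumor. Its measured relatives did not meet the rule. Ifi202b, in the same family, had 10.7, 7.29 and 13.6 CPM in footpad and 1.84, 4.19 and 1.47 CPM in flank tumors, with all footpad tumors above all flank tumors, and it was called higher (log2 difference 2.08 of mean CPM, adjusted p = 0.0388 from edgeR). Of 6 family members with a mean flank CPM of 1 or more, Ifi213 was the only one at least 2 times lower in every footpad tumor, and the median log2 difference over the 6 was 1.24 in the direction of the footpad. HIN-200 genes share long stretches of sequence, so that reads could have been assigned to the wrong copy. Of 50 interferon-stimulated genes with a mean flank CPM of 1 or more, 0 were members (against 0.647% of all such genes), with a median log2 difference of -0.37.

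This motif occurred, on either strand, in 4 of the 60 members with a promoter in the RefSeq table (Ifi213, Plxnc1, Tenm4 and Unc80; 6.67%), and in 3.75% of the 9956 promoters of genes with a mean flank CPM of 1 or more. For the other motifs searched, on both strands, the direction of the difference in 2 cases depended on the promoters compared with. CACGTG, the E-box, was in 8.33% of member promoters, against 11.8% of those of the 9956 genes and 7.15% of all promoters in the table. ACGTG, the core of the hypoxia response element, which CACGTG contains, was in 15 of 60 members against 29.8% and 19.6%, and TGACGTCA, the cAMP response element, was in 0 of 60 against 3.57% and 1.79%. CATGTG, the core of the M-box of pigment genes, was in 9 member promoters (15.0%) against 10.5% and 14.2%. The median GC content of the promoters was 55.3% for members and 61.0% for all. A match of letters does not show that a factor binds there.

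Metabolic enzymes formed the most numerous group, with 20 members and a median ratio of flank to footpad means of 4.43. They did not belong to 1 pathway. Gsta4, a glutathione transferase that conjugates the lipid peroxidation product 4-hydroxynonenal, had the highest level per length among the protein-coding members, with a mean of 124 FPKM in flank and 11.3 FPKM in footpad tumors. Its level was 10.6, 14.8 and 11.1 CPM in footpad and 277, 61.1 and 62.2 CPM in flank tumors. Flank replicate 1 was over 4 times the other flank tumors, and all flank tumors were above all footpad tumors. The ratio of means was 10.97, and 5.07 without flank replicate 1. Of its relatives, Gsta1 and Gsta2 had lower means in footpad tumors (log2 differences of -0.81 and -0.68) and Gsta3 was at 0.107, 0.196 and 0.271 CPM in footpad and 4.62, 0.294 and 0.238 CPM in flank tumors, none of the 3 past the test.

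Selenbp1 and Selenbp2, near-identical copies that encode a methanethiol oxidase and its paralog, were the only pair of relatives by symbol that both met the rule. Both lie on the plus strand of chromosome 3, Selenbp1 from 94933083 to 94944758 and Selenbp2 from 94693573 to 94704406. The promoters are printed to show how alike the copies are, with 273 of 312 aligned positions identical (87.5%), and capitals mark CATGTG or its reverse complement, 3 overlapping or separate matches in Selenbp1 and 1 in Selenbp2.

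Selenbp1 promoter, chr3:94932833-94933132, plus strand: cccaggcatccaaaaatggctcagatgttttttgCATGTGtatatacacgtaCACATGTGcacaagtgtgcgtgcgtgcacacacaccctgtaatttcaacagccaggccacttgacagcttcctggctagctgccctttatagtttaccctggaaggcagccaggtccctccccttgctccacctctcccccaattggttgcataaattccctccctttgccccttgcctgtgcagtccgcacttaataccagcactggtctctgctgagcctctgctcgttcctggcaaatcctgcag
Selenbp2 promoter, chr3:94693323-94693622, plus strand: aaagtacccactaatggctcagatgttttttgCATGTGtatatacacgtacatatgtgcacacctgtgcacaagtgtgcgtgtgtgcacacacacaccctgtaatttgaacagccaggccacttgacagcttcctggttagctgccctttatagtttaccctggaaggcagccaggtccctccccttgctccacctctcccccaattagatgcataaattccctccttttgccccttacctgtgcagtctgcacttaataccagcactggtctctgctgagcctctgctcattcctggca

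Selenbp1 was at 33.4, 41.6 and 25.3 CPM in footpad and 147, 101 and 102 CPM in flank tumors. Selenbp2 was at 2.94, 3.45 and 2.23 CPM in footpad and 11.6, 8.096 and 8.36 CPM in flank tumors. Both were highest in flank replicate 1 and lowest in footpad replicate 3, with ratios of means of 3.49 and 3.25. Reads of the copies could have been split between them by the counting, so their values are not independent. Per length Selenbp1 (61.7 FPKM in flank tumors) was far above Selenbp2 (4.92 FPKM).

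Aldoc, the brain-type aldolase of glycolysis, was at 26.5, 35.6 and 28.7 CPM in footpad and 148, 93.7 and 95.3 CPM in flank tumors. The footpad tumors lay close together and the lowest flank tumor was at 2.63 times the highest of them. Aldoc and Selenbp1 were the 2 members on a glycolysis and hypoxia response list of 38 genes with a mean flank CPM of 1 or more. Members were 0.647% of all such genes. Over the 38 the median log2 difference was -0.24. The 2 called lower were these same 2 members, chosen by the same contrast, so that their calls add nothing. None was called higher, and over all 17210 genes tested 0.872% were called lower and 2.89% higher. The respiratory chain list of 35 genes held 1 member, Cox7a1, a muscle-type subunit of cytochrome c oxidase, at 1.23, 1.54 and 0.917 CPM in footpad and 10.03, 3.21 and 5.69 CPM in flank tumors, and its median log2 difference was -0.26. Its paralog Cox7a2 was at a log2 difference of -0.36. Over all 13133 genes the median log2 difference was -0.05.

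Pck2, the mitochondrial phosphoenolpyruvate carboxykinase, was at 24.6, 27.3 and 23.3 CPM in footpad and 70.5, 58.01 and 72.8 CPM in flank tumors. Slc25a34, an orphan carrier of the inner mitochondrial membrane, was at 22.8, 25.4 and 20.5 CPM in footpad and 114, 53.5 and 61.1 CPM in flank tumors. As3mt, which methylates arsenic, was at 7.46, 10.1 and 9.34 CPM in footpad and 28.0, 25.4 and 26.5 CPM in flank tumors. In Pck2 and As3mt the tumors of a site lay near each other, with SDs of 7.94 and 1.32 CPM around flank means of 67.1 and 26.6 CPM, whereas Slc25a34 was nearly 2 times higher in flank replicate 1 than in the others. Dhrs2, a short-chain dehydrogenase/reductase, was at 0.537, 1.28 and 1.19 CPM in footpad and 13.8, 7.82 and 8.28 CPM in flank tumors, a ratio of means of 9.95 in which the lowest flank tumor was 6.11 times the highest footpad tumor.

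Aspa, which cleaves N-acetylaspartate to aspartate and acetate, was at 0.236, 0.347 and 0.167 CPM in footpad and 11.9, 2.48 and 2.33 CPM in flank tumors. Flank replicate 1 carried most of its mean, and the ratio of means fell from 22.3 to 9.62 without that tumor. Gulo, on chromosome 14, encodes the last enzyme of vitamin C synthesis and was the only member with 3 counts or fewer in all footpad tumors, which had 0 counts each. It was at 0.928, 0.3304 and 2.52 CPM in flank tumors, at least 21.9-fold higher than a limit of 3 counts in each footpad library, and at least 10.96-fold higher without flank replicate 3, which was the highest. With a flank CPM between 0.33 and 2.52 it was also among the sparser members.

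Enzymes of lipid and sterol metabolism were few. Tm7sf2, a sterol reductase of cholesterol synthesis, was at 2.06, 3.63 and 4.09 CPM in footpad and 12.9, 9.88 and 10.1 CPM in flank tumors. It was the 1 member among 29 genes of cholesterol synthesis and uptake, against 0.647% of all genes with a mean flank CPM of 1 or more. The median log2 difference of the 29 was -0.57. Thrsp, a regulator of fatty acid synthesis, had a ratio of means of 4.55, and Pla2g3, a secreted phospholipase, a ratio of 8.51. Other enzymes were Akr1b7, Ldhd, Cyb5r2, Nqo1, Pycr1 and Adhfe1, with ratios between 2.71 in Adhfe1 and 6.78 in Akr1b7. Pycr1, the mitochondrial enzyme of proline synthesis, was at 1.91, 1.05 and 1.17 CPM in footpad and 5.57, 4.63 and 5.53 CPM in flank tumors.

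Secreted hormones and plasma proteins made up 4 members with the highest median ratio among the named groups, 12.7. Ahsg, or fetuin-A, a liver glycoprotein that keeps calcium phosphate in solution, was at 0.172, 0.166 and 0.188 CPM in footpad and 8.18, 2.59 and 1.505 CPM in flank tumors. The footpad tumors differed by less than 0.03 CPM from each other, and flank replicate 1 was over 3 times the other flank tumors. Cck, the gut and brain peptide cholecystokinin, was at 0.215, 0.558 and 0.209 CPM in footpad and 11.4, 3.63 and 2.28 CPM in flank tumors. Fgf21, a hormone of fasting and of the stress response, was at 0.559, 1.48 and 0.313 CPM in footpad and 9.04, 5.599 and 3.39 CPM in flank tumors, and Angptl6, an angiopoietin-like protein, at 0.623, 1.12 and 0.938 CPM and 6.02, 3.103 and 3.01 CPM. All 4 were highest in flank replicate 1, and without it the ratio of Ahsg moved from 23.4 to 11.7 and that of Cck from 17.6 to 9.05. Without footpad replicate 2, the highest footpad tumor for both genes, the ratio of Cck was 27.2 and that of Fgf21 moved from 7.68 to 13.8. Some relatives of the last pair went the other way: Angptl2 was called higher in footpad tumors (log2 difference 1.25), as were Angptl7 (4.83) and Fgf2 (2.80).

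Matrix genes were 7 of the members, none of them among the 30 measured genes of a list of common matrix genes. Of the 32 genes of that list tested by edgeR, 18 were called higher in footpad tumors and 0 lower, against 2.89% and 0.872% of all 17210 genes tested. Col2a1 and Col9a1 encode chains of type II and type IX collagen, collagens of the cartilage fibril. Col2a1, on chromosome 15, was at 7.01, 5.74 and 5.36 CPM in footpad and 43.8, 33.2 and 40.4 CPM in flank tumors. Col9a1, on chromosome 1, was at 1.81, 3.41 and 2.48 CPM in footpad and 22.5, 27.1 and 32.8 CPM in flank tumors. Neither was led by 1 flank tumor, and the ratios of means were 6.48 and 10.7. Col9a3, another chain of type IX collagen, was at 2.66, 3.38 and 2.42 CPM in footpad and 1.66, 5.73 and 2.71 CPM in flank tumors and overlapped between the sites.

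Matn4, a matrilin of cartilage and brain matrix, was at 0, 0.105 and 0.209 CPM in footpad and 2.85, 1.91 and 1.58 CPM in flank tumors. Its first value was 0 counts, and the flank tumors were all above 1.5 CPM. Matn2 and Matn3 were at log2 differences of -0.54 and -0.36 and did not pass the test. Col4a4, a chain of the kidney-type basement membrane, was at 3.03, 2.89 and 3.15 CPM in footpad and 8.62, 12.1 and 9.85 CPM in flank tumors, while Col4a1 and Col4a2, the chains of most basement membranes, were called higher in footpad tumors with log2 differences of 1.00 and 1.31. The matrix group was completed by Frem1, of the skin basement membrane (4.32), Bcan, the brain proteoglycan brevican (3.79), and Sspo, or SCO-spondin (6.26), with the ratio of means in parentheses. Frem2, the relative of Frem1, was at a log2 difference of 1.03 and did not pass the test.

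Receptors and signaling proteins numbered 11. Gpr37, a receptor of neurons and glia, was at 3.72, 9.96 and 5.92 CPM in footpad and 94.7, 23.8 and 20.4 CPM in flank tumors, and flank replicate 1 was near 4 times the next tumor. Pde4c, a phosphodiesterase that degrades cAMP, was at 0, 0 and 0.104 CPM in footpad and 1.82, 1.65 and 0.649 CPM in flank tumors. Only footpad replicate 3 had any read of Pde4c, and its ratio of means of 39.6 rests on that sparse level. Without that tumor flank tumors were at least 25.1-fold higher than a limit of 3 counts in each footpad library. Plxnc1, the receptor of semaphorin 7A, was at 24.5, 27.4 and 23.4 CPM in footpad and 90.4, 57.4 and 58.2 CPM in flank tumors. Mrap, the accessory protein of the adrenal melanocortin receptor, was at 1.78, 2.18 and 1.79 CPM and 8.54, 5.47 and 6.18 CPM, and Dock10, an activator of small GTPases, at 15.9, 6.54 and 14.5 CPM and 42.3, 74.7 and 53.6 CPM. Tenm4, a teneurin of neuronal wiring, was at 2.26, 5.85 and 1.88 CPM in footpad and 14.1, 17.5 and 22.6 CPM in flank tumors, whereas its relative Tenm3 was at 1.63, 0.392 and 1.69 CPM and 0.0640, 0.514 and 0 CPM, with a higher mean in footpad tumors but an overlap between the sites. Rab11fip4, an effector of recycling endosomes, was at 9.03, 8.81 and 8.61 CPM in footpad and 18.3, 29.9 and 36.3 CPM in flank tumors and lay near the limit of the rule. Rab17, Gna14, Ramp3 and Rasgef1c had ratios of means of 7.38, 4.90, 3.902 and 3.702, and that of Rab17 was 4.34 without flank replicate 1.

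Transporters and channels were 7, among them genes of excitable cells. Slc16a7, the monocarboxylate transporter MCT2, was at 1.16, 3.68 and 1.397 CPM in footpad and 68.1, 17.8 and 28.4 CPM in flank tumors. It had a ratio of means of 18.3, 11.1 without flank replicate 1 and 29.8 without footpad replicate 2. Its relatives Slc16a1 and Slc16a3, the lactate transporters MCT1 and MCT4, were at log2 differences of -0.04 and -0.15. Scn1a, a sodium channel of neurons, was at 6.94, 6.66 and 9.07 CPM in footpad and 37.8, 47.5 and 22.995 CPM in flank tumors. It was the 1 member among 14 measured neural and synaptic genes, against 0.647% of all genes with a mean flank CPM of 1 or more. The median log2 difference of the 14 was -0.05. Aqp4, the water channel of astrocytes, was at 2.88, 5.47 and 4.25 CPM and 20.1, 15.5 and 16.6 CPM, with no flank tumor far from the others. Slc4a5, a bicarbonate cotransporter, Unc80, a subunit of the sodium leak channel complex, and Mcoln3, a lysosomal cation channel, had ratios of 5.15, 4.93 and 9.63, the last at 18.03 without footpad replicate 2.

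Nuclear receptors, transcription and chromatin genes were 7. Nr5a1, or steroidogenic factor 1, which drives adrenal and gonadal steroid synthesis, was at 0.1504, 0.166 and 0.646 CPM in footpad and 12.9, 2.94 and 1.87 CPM in flank tumors. Its flank tumors varied more than those of any other member, with an SD of 103% of the mean, and its ratio of means was 18.4 over all tumors, 7.49 without flank replicate 1 and 37.4 without footpad replicate 3. Nr1i2, the xenobiotic receptor PXR, was at 0, 0.347 and 0.375 CPM and 7.89, 1.76 and 1.60 CPM, with the same tumor highest. Hmgb2, a chromatin protein, was at 31.96, 42.7 and 38.7 CPM in footpad and 86.6, 99.4 and 106 CPM in flank tumors. It was an abundant and even member, and its relatives Hmgb1 and Hmgb3 had log2 differences of -0.88 and -0.81 without passing the test, against -1.36 for Hmgb2. Etv1, an ETS factor, was at 10.9, 14.1 and 15.6 CPM in footpad and 39.4, 35.05 and 32.4 CPM in flank tumors, and its relative Etv5 was called lower (log2 difference -1.26), while Etv3, Etv4 and Etv6 were between 0.18 and 0.62. Pou3f2, the neural factor BRN2, Lmo1 and Nrip2 had ratios of 3.03, 3.197 and 12.02, the last at 6.36 without flank replicate 1.

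**Figure D3:**
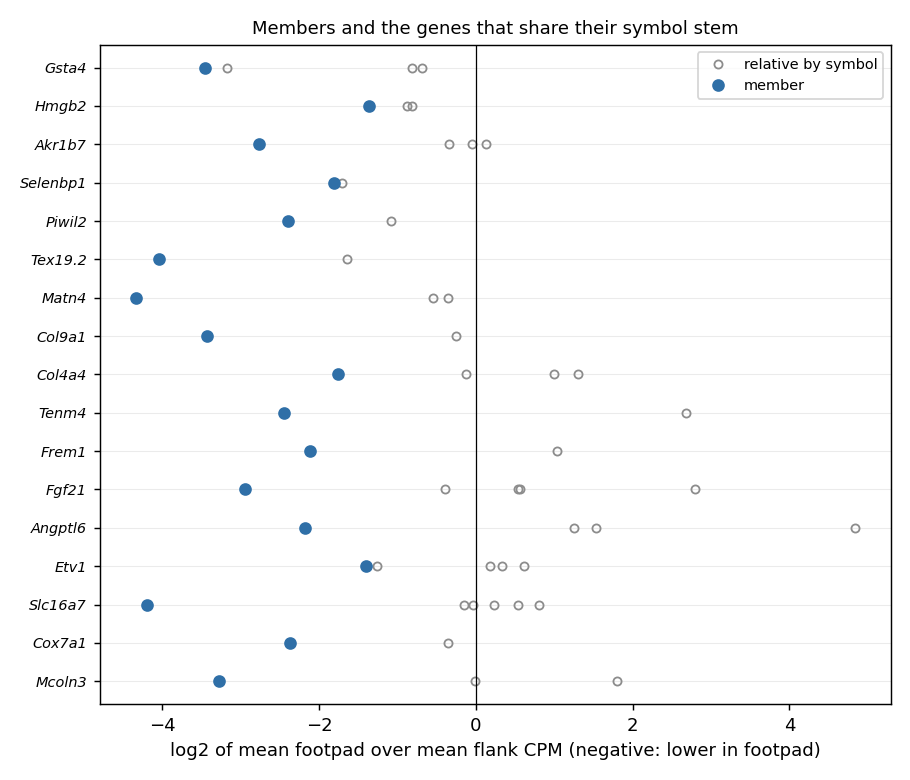
log2 of mean footpad over mean flank CPM for 17 members (filled) and for the expressed genes that share their symbol stem (open), 1 row per member. Members lie to the left by choice, and their relatives spread on both sides of 0, from -3.17 for Gsta3 to 4.83 for Angptl7.

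Germline-linked genes were Piwil2, Tex19.2 and Gpat2, which act in or near the piRNA pathway that silences transposons in germ cells. Piwil2 was at 3.91, 3.32 and 3.02 CPM in footpad and 32.7, 13.3 and 7.95 CPM in flank tumors, Tex19.2 at 0, 0.151 and 0.125 CPM and 3.12, 0.661 and 0.744 CPM, and Gpat2 at 0.301, 0.452 and 0.167 CPM and 3.44, 1.597 and 1.35 CPM. Each of the 3 was highest in flank replicate 1, at over 2 times both other flank tumors, and without it the ratio of Piwil2 moved from 5.27 to 3.12 and that of Tex19.2 from 16.4 to 7.64. Tex19.1, a near copy 27.5 kb from Tex19.2, had a log2 difference of -1.64 and overlapped between the sites, and Piwil4 was at -1.08.

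Immune and cell death genes besides Ifi213 were C4b, H2-DMb1 and Gsdmc. C4b, the complement component C4, was at 33.9, 31.4 and 33.05 CPM in footpad and 113, 117 and 98.9 CPM in flank tumors. It was one of the evenest members, with SDs of 1.25 CPM in footpad and 9.66 CPM in flank tumors, although reads of its copy C4a cannot be told from its own over long stretches. H2-DMb1, which loads peptides on MHC class II molecules, was at 1.03, 1.36 and 1.31 CPM in footpad and 5.104, 10.9 and 2.72 CPM in flank tumors. Its ratio of means fell from 5.07 to 3.17 without flank replicate 2. It was the 1 member among 22 antigen presentation genes with a mean flank CPM of 1 or more, against 0.647% of all such genes. Of the 22, 2 were called lower, against 0.872% of all genes tested. Besides H2-DMb1 this was H2-K1 (48.2, 32.0 and 49.5 CPM in footpad and 136, 120.2 and 69.0 CPM in flank tumors). The class II genes H2-Aa, H2-Ab1, H2-Eb1 and H2-DMa had higher means in footpad tumors and did not pass the test, with log2 differences of 1.25, 1.54, 0.90 and 1.18. Of these H2-DMa lies 14.1 kb from H2-DMb1. Gsdmc, a pore-forming gasdermin with several near copies, was at 10.3, 14.7 and 14.8 CPM in footpad and 31.9, 32.8 and 35.4 CPM in flank tumors.

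Cilium, cytoskeleton and vesicle genes were Vill, Dnajc6, Cfap46 and Spef1. Vill, a villin-like actin binding protein, was at 14.1, 14.7 and 15.3 CPM in footpad and 34.5, 40.8 and 32.2 CPM in flank tumors, the smallest ratio of means of all members at 2.44. Dnajc6, the neuronal auxilin that uncoats clathrin vesicles, had a ratio of 5.35, and the ciliary genes Cfap46 and Spef1 had 3.65 and 2.47. A further 6 coding genes fell into no group. Bcas1, a protein of myelin-forming cells, was at 0, 0.0603 and 0.167 CPM in footpad and 3.25, 2.42 and 1.62 CPM in flank tumors. The uncharacterized gene 1500009L16Rik was at 0, 0.799 and 0.897 CPM in footpad and 10.2, 5.49 and 6.51 CPM in flank tumors. Both had 0 counts in footpad replicate 1, and their ratios of means were 32.1 and 13.1. That of Bcas1 was 80.6 without footpad replicate 3, a value that rests on footpad levels of 0 and 0.0603 CPM, close to the limit of detection. Rlbp1, a retinaldehyde-binding protein of the eye, Igsf5, Mro and 4930502E18Rik had ratios of 7.51, 13.8, 6.35 and 4.54. Without flank replicate 1 those of Rlbp1, Igsf5 and 4930502E18Rik were 4.95, 6.83 and 2.26, and without footpad replicate 2 that of Igsf5 was 33.8.

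Noncoding genes were 12 of the 85. Long noncoding RNAs made up 8 (9.41%, against 3.97% of all genes with a mean flank CPM of 1 or more), and 73 members (85.9%, against 89.7%) coded for protein. Pseudogenes were 4.64% of all genes and 0 of the members. The 2 noncoding members with the highest level per length, LOC115487687 and LOC115488085, are annotated as spliceosomal snRNAs of 191 bases, with mean flank levels of 277 and 211 FPKM. Their sequences are shown because 182 of the 191 bases are identical (95.3%), and the 9 positions at which they differ are in capitals. Their letters begin like the U2 snRNA of the spliceosome.

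LOC115487687, chr1:72236946-72237136, plus strand: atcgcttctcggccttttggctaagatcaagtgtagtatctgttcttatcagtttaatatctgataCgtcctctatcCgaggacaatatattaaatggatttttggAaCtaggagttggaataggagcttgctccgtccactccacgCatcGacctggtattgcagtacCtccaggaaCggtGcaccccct
LOC115488085, chr12:59040335-59040525, plus strand: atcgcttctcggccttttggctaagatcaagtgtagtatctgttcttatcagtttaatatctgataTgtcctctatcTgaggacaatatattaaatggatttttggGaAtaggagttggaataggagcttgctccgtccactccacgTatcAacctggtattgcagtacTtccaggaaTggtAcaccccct

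LOC115487687 was at 22.4, 14.9 and 12.4 CPM in footpad and 49.95, 77.9 and 49.4 CPM in flank tumors. LOC115488085 was at 12.5, 11.9 and 10.9 CPM in footpad and 35.2, 64.3 and 35.7 CPM in flank tumors. Both were highest in flank replicate 2. Of 13 listed snRNA genes of that length, 10 had a mean flank CPM of 1 or more, with ratios of means between 1.93 and 3.82. All flank tumors were above all footpad tumors in 8 of the 10, against 15.2% of all genes at that level. Flank replicate 2 was highest in all 10, against 46.4% of all such genes. Reads may be shared between the copies, so that they are not 10 separate observations. The summed level of the 13 was 186, 123 and 114 CPM in footpad and 342, 501 and 295 CPM in flank tumors. Reads of such copies cannot be placed with certainty, so that the sum is firmer than the level of a single copy, and the lowest flank sum was under 2 times the highest footpad sum.

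The other small RNAs were Rny3, the Y3 RNA that binds the Ro protein, at 0.408, 0.392 and 0.292 CPM in footpad and 1.23, 1.303 and 1.299 CPM in flank tumors, and the snoRNA LOC115486004, at 0.301, 0.527 and 0.375 CPM and 1.86, 1.95 and 1.96 CPM. Both were nearly equal in the 3 flank tumors. The snoRNA lies inside Trmt10c, which had means of 35.9 CPM in flank and 35.0 CPM in footpad tumors. Among the long noncoding RNAs, Gm30505 was at 0, 0 and 0.0834 CPM in footpad and 2.13, 0.771 and 0.253 CPM in flank tumors. Platr14 and the predicted genes Gm11415, Gm35035, Gm36409, Gm32276, Gm31292 and Gm19935 had ratios of means between 3.11 in Gm19935 and 9.38 in Gm11415, the latter at 20.3 without footpad replicate 3.

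Members had another member nearby about as often as other genes did. With gene positions of RefSeq for GRCm38, 2 of 85 members (2.35%) had another member within 100 kb, against 2.38% of 13116 placed genes with a mean flank CPM of 1 or more. The pair was Gm30505, chromosome 16 from 22874983 to 22894386 on the minus strand, and Ahsg, chromosome 16 from 22892015 to 22899451 on the plus strand. They overlap by 2372 bases, the use of strand in the counting is not given in the sources used here, and both were highest in flank replicate 1, so that reads of one could have been counted on the other. Within 500 kb there were 8 members with another (9.41%, against 7.88% of the placed genes), adding Selenbp2 with Selenbp1 (229 kb apart), Dhrs2 with Pck2 (299 kb) and Pycr1 with Tex19.2 (472 kb). Chromosomes 1, 7 and 11 held 8 members each, chromosome 16 held 6 (7.06%, against 3.11% of all) and chromosome 13 held 0.

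The median difference of the genes around the members was near that of all genes. Of 310 other genes with a mean flank CPM of 1 or more within 100 kb of a member, 40 (12.9%) had all flank tumors above all footpad tumors, against 14.7% of all genes that are not members, and the median log2 differences were -0.06 and -0.05. By edgeR 5 of the 310 (1.61%) were called lower, against 0.498% of all genes that are not members: Rab3a and Gdf15 near Pde4c, Map2 near Unc80, and a pair of U2-like snRNAs near LOC115487687. Another 4 (1.29%, against 2.18%) were called higher: Tnxb near C4b, Bmp1 near Piwil2, Tead4 near Nrip2 and Col5a3 near Angptl6, with Tnxb 8.32 kb from C4b and at a log2 difference of 2.61. Rsc1a1, 59.7 kb from Slc25a34, had the lowest difference at -4.21 but overlapped between the sites, with a lowest flank level of 0.734 CPM and a highest footpad level of 0.946 CPM. Among the members, 34 overlap another annotated gene, and in 9 cases that gene had a mean flank CPM of 1 or more. In those 9, among them Gm31292 within Tgfbr2 (66.9 CPM in flank and 103.7 CPM in footpad tumors) and Nrip2 over Itfg2 (16.2 and 23.9 CPM), reads of the partner could enter the member's count.

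**Figure D4:**
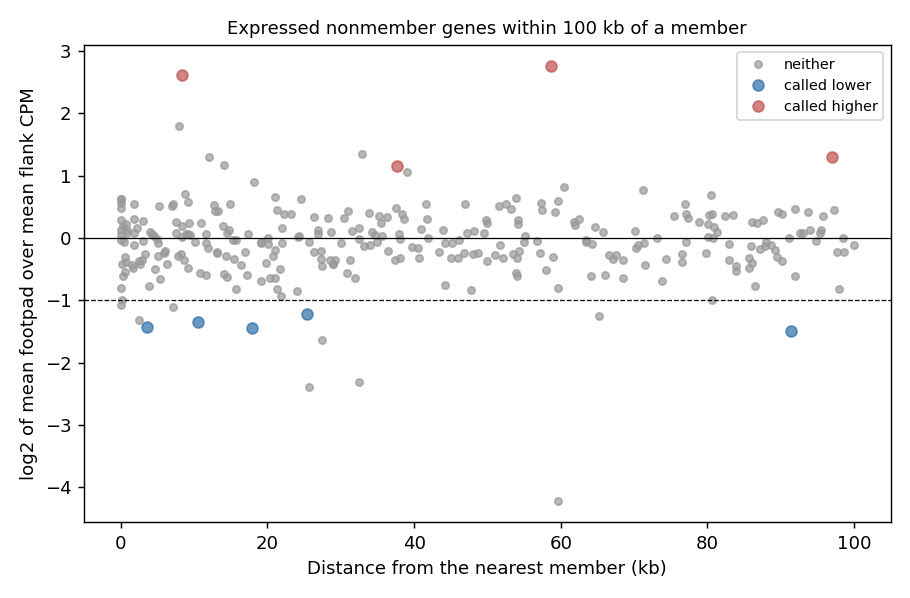
log2 of mean footpad over mean flank CPM (vertical) against the distance in kb from the nearest member (horizontal) for 310 expressed genes within 100 kb that are not members. Grey points scatter around 0, with 5 genes called lower by edgeR in blue and 4 called higher in red.

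Relatives by symbol were spread to both sides. For 42 coding members there were 193 expressed genes with the same symbol stem. Of these, 2 were members themselves (Selenbp1 and Selenbp2), against 0.647% of genes with a mean flank CPM of 1 or more. Another 8 were at least 2 times higher in every footpad tumor, against 3.09% of genes with a mean footpad CPM of 1 or more. Nothing is read from these small counts. A lower mean in footpad tumors was seen in 78. The median log2 difference of the 193 was 0.12, against -0.05 for all 13133 genes with a mean flank CPM of 1 or more. A shared stem is a naming convention and does not always mean a shared ancestor.

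The flank tumors did not contribute equally. Flank replicate 1 was the highest flank tumor for 56 members, replicate 2 for 16 and replicate 3 for 13, whereas over the 13133 genes the shares were 27.6%, 46.4% and 26.0%. In 21 members flank replicate 1 was at least 2 times both other flank tumors, as in 2.44% of all genes. These were Aspa, Nr1i2, Gsta4, Nr5a1, Tex19.2, 4930502E18Rik, Gpr37, Igsf5, Ahsg, Cck, Ldhd, Rab17, Gm30505, Nrip2, Platr14, Piwil2, Rlbp1, Slc16a7, Gna14, Gpat2 and Mcoln3. The same was true of flank replicate 2 in 1 member (H2-DMb1) and of replicate 3 in 1 (Gulo). The median SD of the members was 31.1% of the mean over the flank tumors and 28.3% over the footpad tumors, against 17.7% and 15.4% for all genes.

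Flank replicate 1 also had the highest summed melanoma markers (27417 CPM) and the lowest summed fibroblast markers (97.1 CPM) of all tumors, and 2.81% of its reads fell on hemoglobin genes, against 0.372% and 0.186% in the other flank tumors. The part of these differences in its lead was not tested. Without it 81 of the 85 genes still met the rule, and Gm30505, Mcoln3, Platr14 and Tex19.2 dropped out because their mean level fell under 1 CPM. Leaving out a tumor cannot lower the ratio of lowest flank to highest footpad level, so only the mean level could remove a member. The median ratio of means over the 85 was 4.43 without flank replicate 1, and the ratio moved by more than 1.5 times in 18 of them. Without flank replicate 2 or 3 it did so in 1 member each, and without footpad replicates 1, 2 and 3 in 0, 6 and 7.

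**Figure D5:**
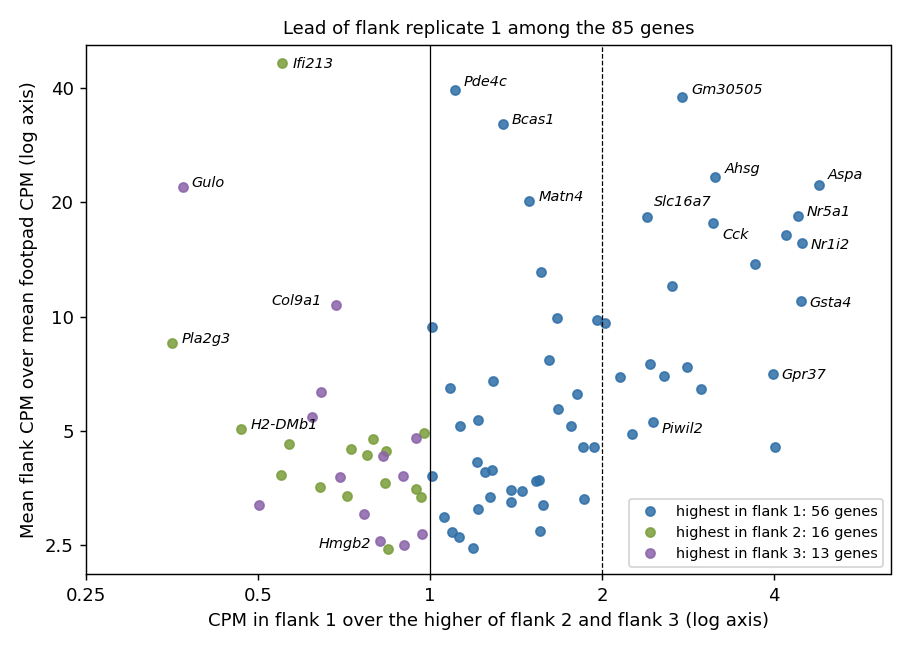
Mean flank over mean footpad CPM (vertical, log axis) against the CPM of flank replicate 1 over the higher of the other flank tumors (horizontal, log axis) for the 85 members, colored by their highest flank tumor, with lines at 1 (solid) and 2 (dashed). The 21 genes right of the dashed line include Aspa, Nr5a1, Nr1i2 and Gsta4, and the abundant Hmgb2 lies near the lower edge with its flank tumors close together.

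A smaller group was even across the flank tumors. In 14 members the highest flank tumor was at most 1.25 times the lowest: Rny3, LOC115486004, As3mt, Gsdmc, Adhfe1, Gm11415, C4b, Pycr1, Etv1, Hmgb2, Unc80, Spef1, Gm19935 and Cyb5r2. Metabolic enzymes were in both groups, and the 7 matrix genes had none among the 21 led by flank replicate 1. Among the footpad tumors the highest level was in replicate 2 for 39 members, in replicate 3 for 26 and in replicate 1 for 20, close to the shares over all genes of 47.03%, 30.01% and 22.97%. Footpad replicate 2, which set the upper level most often, also had the highest summed keratinocyte markers (689 CPM, against at most 40.1 CPM in any other tumor) and skeletal muscle markers (595 CPM, against at most 87.2 CPM), and their part in the members' levels was not tested.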

How the data were processed

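RNA of 3 footpad and 3 flank B16F10 tumors was analysed, grouped by the sample labels. Reads were trimmed (Trimmomatic) and aligned to mm10 (HISAT2 2.1.0) by the authors, whose processing notes also name FastQC 0.11.7. The deposited count of each gene is a whole number of reads with no normalization. The deposited FPKM values are scaled by the authors for length and depth. How reads were counted, with or without strand, and where multiply matching reads went are not given in the sources used here. CPM used the column totals of the deposited counts, 46529649 to 66364366 reads.

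Members and gene lists were chosen with earlier results of these data known, and the grouping by role was made after the members were seen. The genes given by rule were the 12 members with the highest mean flank FPKM, the 10 with the largest ratio of lowest flank to highest footpad CPM, members at the limit of 3 counts in every footpad tumor, the 5 on each side of the threshold, members on a gene list, the neighboring pair and the member with the largest spread over the flank tumors. All others were named after their values were seen. Of the members, 1 is not reported here. A log2 difference is that of mean footpad over mean flank CPM.

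Counts were compared in R 4.3.3 with edgeR 4.0.16 (TMM, filterByExpr, glmQLFit and glmQLFTest, Benjamini-Hochberg), and calls needed both a fold of at least 2 and an adjusted p under 0.05. On simulated data with 200 of 17210 genes changed 4-fold, edgeR recovered 170, with 3.95% false calls. The simulation gave every gene the same dispersion, so that these rates check the code and do not describe the test on these tumors. Other scalings, thresholds, a low-count filter, FPKM with limma 3.58.1, DESeq2 1.42.0, the replicate number as a block and leaving out each tumor were tried. Positions, classes and promoters came from RefSeq for GRCm38.p6, which matched 85 of 85 members (promoters for 60), and snRNA sequences from GENCODE M21. Scripts ran in Python 3.11.15.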

Additional observations from a re-analysis of the deposited data

How the results depend on the processing

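The number of members depended most on the limits set. With ratios of 1.5 and 3 in place of 2 there were 207 and 33 genes, and 33 of the members met the stricter one. With a mean flank CPM of 5 there were 50, all of them members, and without a minimum 2609, the added genes being under 1 CPM. Leaving out 1 tumor gave between 103 (without footpad replicate 1 or 3) and 164 genes (without footpad replicate 2), and 119 without flank replicate 1, 105 without flank replicate 2 and 154 without flank replicate 3. Leaving out a tumor cannot lower a member's ratio of lowest flank to highest footpad CPM. A member could thus be lost only through its mean flank CPM, and its staying says nothing about the ratio. The 85 all remained without a footpad tumor or flank replicate 2, 84 without flank replicate 3 (Gulo was lost) and 81 without flank replicate 1. Under 4 scalings of the counts 82 of the 85 met the rule each time, the exceptions being Ramp3, 4930502E18Rik and Piwil2. With FPKM in place of CPM 71 genes met it and 58 members remained, since 23 members had a mean flank FPKM under 1, while 80 of the 85 kept a ratio of 2.

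The 150 genes called lower by edgeR became 365 with DESeq2 and 95 with limma on log2(FPKM + 1). Leaving out 1 tumor gave between 0 (without footpad replicate 3, with 420 at an unadjusted p under 0.05) and 197 calls (without footpad replicate 2), with 5 without footpad replicate 1 and 10, 77 and 98 without flank replicates 3, 1 and 2. With the replicate number as a block edgeR called 0 genes lower, although 413 had an unadjusted p under 0.05, and DESeq2 without the block called 365. The labels did not say whether tumors of the same number shared a mouse. Deviations of same-numbered tumors from their site means had correlations of 0.0544, -0.0965 and -0.115. Those of differently numbered tumors lay between -0.1995 and 0.2639. With 3 tumors per site such values cannot decide which tumors shared a mouse. Members with another member nearby were 8 within 500 kb and 0 without predicted genes. The cause of these shifts was not tested. Members under 2 CPM rest on few reads, and 3 tumors per site limit every comparison.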

Other observations

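Several gene groups that mark B16F10 cells or their growth held no members. Members were only 0.647% of the 13133 genes with a mean flank CPM of 1 or more. By edgeR 0.872% of the 17210 genes tested were called lower and 2.89% higher. Having 0 members or 0 calls in lists this short therefore says little about them. Of 26 melanocyte lineage and pigment genes with a mean flank CPM of 1 or more, 0 met the rule and 0 were called by edgeR in either direction, with a median log2 difference of -0.13 (0 of 26 is a description of these tumors and not evidence of equal levels). The 31 DNA replication genes and 28 mitosis genes had medians of -0.51 and -0.53, with 0 members and 0 calls. DNA repair genes (29, median -0.40), ribosomal protein genes (18, median -0.31) and the GBP and IRG GTPases (13, median -0.30) also held 0 members. The median over all 13133 genes was -0.05.

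Named families held few members, and members were only 0.647% of all genes with a mean flank CPM of 1 or more. Zinc finger proteins (357 genes with a mean flank CPM of 1 or more), transmembrane proteins of symbol Tmem (165), protocadherins (28), cytochromes P450 (17) and potassium channels (17) held 0 members, and 198 solute carriers held 3, Slc16a7, Slc25a34 and Slc4a5.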
